A study of Mus musculus with 8 samples.

Results

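Cyclic nucleotide phosphodiesterases (PDEs) were followed through cultured mouse dental papilla cells of 2 Bmp2 genotypes, floxed and knock-out. The set holds 10 of the 22609 gene symbols in the count table, namely Pde3a, Pde3b, Pde4a, Pde4b, Pde4d, Pde7a, Pde7b, Pde8a, Pde10a and Pde1a. It was chosen by the genotype contrast, in that Pde3b had the smallest p of that contrast at 6, 48 and 72 h, and the other members were added as relatives of that enzyme. The genotype values of the members are therefore given as a description, with no p-value, and counts of members past a threshold are support for nothing.

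The study compared immortalized dental papilla cells of the genotype Bmp2 floxed/floxed (iBmp2fx/fx, called fx/fx) with Bmp2 knock-out papilla cells (iBmp2ko/ko, called ko/ko). Both are immortalized lines. Whether either of them is 1 clone, or 1 was derived from the other, is not given in the sources used here. With 1 line per genotype, an effect of genotype cannot be told apart from another difference between the lines. Cells were harvested after 6, 24, 48 or 72 h of culture, and 1 RNA sequencing library was made for each genotype and time, 8 libraries in all. The study's methods name 6, 48 and 72 h, so the comparisons below use 3 libraries per genotype, and the pair of 24 h libraries is given beside them. The 3 libraries of a genotype are the same line at different times, so an SD over them holds both the change with culture time and the spread between cultures. In such bulk RNA, fewer cells expressing a gene and less RNA per cell cannot be told apart.

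PDEs hydrolyse cAMP and cGMP and so end the signal that adenylyl and guanylyl cyclases start. cAMP acts through protein kinase A (PKA), the Epac exchange factors and the transcription factor CREB. PDE3 enzymes hydrolyse cAMP and are held back by cGMP, and PDE3B is known for carrying the antilipolytic action of insulin in fat cells. PDE4, PDE7 and PDE8 enzymes are specific for cAMP, whereas PDE1 and PDE10 enzymes hydrolyse both nucleotides, PDE1 under control of calcium and calmodulin. Parathyroid hormone-related peptide and prostaglandin E2, both known from tooth and bone mesenchyme, signal through cAMP.

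Between 25890110 and 32415665 reads per library fell on genes, with a median of 29985177, and 3 reads corresponded to 0.0925 to 0.116 CPM (counts per 1000000 reads on genes). Bmp2 had 1 read in the fx/fx 24 h library and 0 in the other 7, so the deleted gene could not check the labels. Vim and Col1a1, general mesenchyme genes, were abundant in every library, and Msx1, Pax9, Lhx6, Dlx1, Dlx2 and Twist1 of the dental mesenchyme list were detected, whereas Lhx8 and Barx1 of that list had at most 3 reads in every library. Of 6 odontoblast genes, Dspp had at most 3 reads in every library and Runx2 1274 to 3303. The summed level of the 6 was 94.3 to 169 CPM in the fx/fx libraries and 44.6 to 80.7 CPM in the ko/ko libraries of 6, 48 and 72 h, without overlap, and 97.7 CPM in the library labelled ko/ko at 24 h. Alpl, alkaline phosphatase, named after its values were seen, was the only marker gene called between genotypes by edgeR. It had 403, 1641 and 1887 reads in fx/fx and 19, 17 and 35 in ko/ko cells at 6, 48 and 72 h, 48.5-fold lower (adjusted p = 0.0153 by edgeR), a call lost without the fx/fx 48 h, ko/ko 6 h or ko/ko 48 h library (adjusted p = 0.0746, 0.0763 and 0.104). Sp7, an osteoblast and odontoblast factor, had 18, 90 and 93 against 2, 3 and 5 reads (adjusted p = 0.0505 by edgeR, and 0.000834 with culture time as a block). Other marker sums also parted by genotype at 6, 48 and 72 h without overlap. Dental mesenchyme genes summed to 173 to 196 CPM in fx/fx and 104 to 125 CPM in ko/ko, epithelial genes to 0.990 to 1.87 and 0.270 to 0.919 CPM, and endothelial genes to 1.47 to 3.02 and 0.811 to 1.14 CPM. Fibroblast genes summed to 7924 to 9906 CPM in fx/fx and 10985 to 17269 CPM in ko/ko, and glial and neuronal genes to 1.15 to 1.33 and 1.39 to 2.81 CPM. The fx/fx 24 h library lay inside the ko/ko range for epithelial genes (0.741 CPM) and for glial and neuronal genes (2.12 CPM). Among single markers that did not overlap, Dlx2 was at 48.8 ± 7.25 CPM in fx/fx and 8.25 ± 7.77 CPM in ko/ko (SD, n = 3 each). Col3a1 was at 945 ± 53.4 and 2704 ± 995 CPM. Their adjusted p by edgeR without a block was 0.118 and 0.0534. By time, their log2 ratios were -3.74, -3.44 and -1.68, and 1.99, 1.55 and 0.81. Not every gene of a list moved with its sum. Pax9 was higher in ko/ko without overlap, at 2.10 ± 0.146 CPM in fx/fx and 3.02 ± 0.470 CPM in ko/ko. Of the fibroblast genes, Pdgfra (226 and 163 CPM) and Prrx1 (366 and 328 CPM) were lower in ko/ko, with overlap. Col1a1 and Col1a2 overlapped too. The part of these shifts in the PDE values was not tested. All 4 adipocyte markers examined because of Pde3b (Adipoq, Lep, Plin1, Cidec) and all 4 blood markers likewise had at most 3 reads in every library, Lep 0 in all 8.

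The library labelled ko/ko at 24 h went against its label in its likeness to the others. Over 13053 genes its root mean square difference in log2 CPM was 0.21 from the fx/fx 6 h library, 0.48 from fx/fx 48 h, 0.53 from fx/fx 24 h, 0.76 from ko/ko 48 h, 0.78 from both fx/fx 72 h and ko/ko 6 h, and 0.98 from ko/ko 72 h. Over the 8 PDE members with enough reads to test, the distance was 0.12 from the fx/fx 6 h library and 2.29 to 2.36 from the 3 other ko/ko libraries. Each of these 8 members lay between -0.27 (Pde10a) and 0.16 (Pde4b) of the fx/fx 6 h library on the log2 scale. At 24 h, 7 of the 8 were nearer to the mean of the 3 fx/fx than of the 3 ko/ko libraries, all but Pde4b. The same held for 64.8% of all 13006 genes compared and for 98.8% of the 247 of them that were called between genotypes. Whether this library carries the genotype of its label was not tested further, and it entered no comparison below unless it is named.

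**Figure D1:**
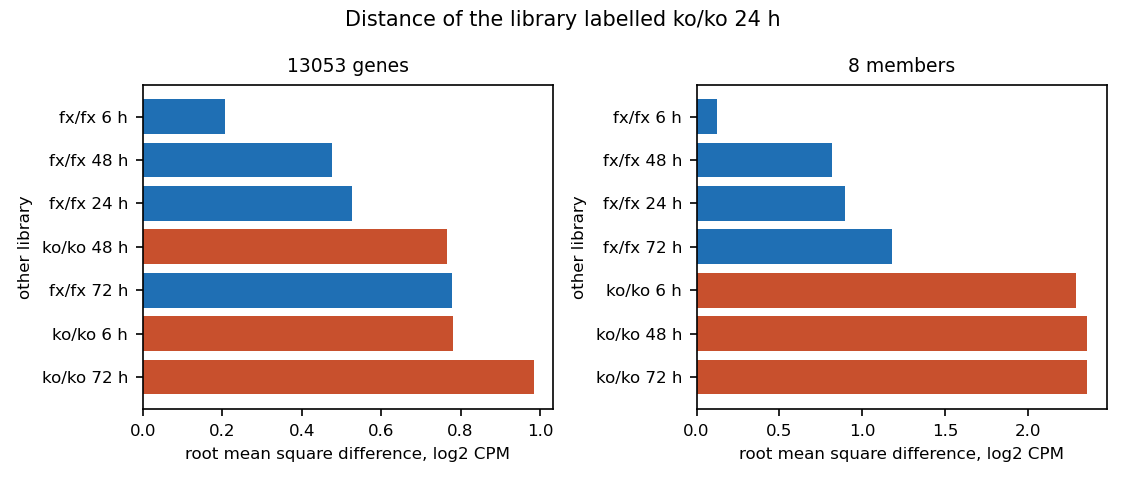
Root mean square difference in log2 CPM (x axis, from 0) between the library labelled ko/ko at 24 h and each of the other 7 libraries, over 13053 genes (left) and over 8 PDE members (right), blue for fx/fx and red for ko/ko. In both panels the fx/fx 6 h library is the nearest, at 0.21 and 0.12.

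Pde3b (ENSMUSG00000030671.8, chr7:121558795-121682765, plus strand, mm9) was nearly lost from ko/ko cells. The fx/fx libraries of 6, 48 and 72 h held 714, 669 and 715 reads of it, and that of 24 h held 710. The matching ko/ko libraries held 10, 11 and 13 reads, and the library labelled ko/ko at 24 h held 578. The 3 ko/ko libraries lay far below every fx/fx library and close to each other. Normalised to depth, Pde3b was at 22.1 ± 1.31 CPM in fx/fx (SD, n = 3) and at 0.401 ± 0.0884 CPM in ko/ko cells (SD, n = 3), which was 55.3-fold lower. The log2 difference fitted by edgeR was -5.78 (SE 0.29). By time, the log2 ratio of ko/ko over fx/fx was -6.08, -5.84 and -5.51 at 6, 48 and 72 h, against -0.17 for the 24 h pair. The reads left in the 3 ko/ko libraries were above the 3 reads taken as the limit of detection, so Pde3b was low there but detected.

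Pde3a (ENSMUSG00000041741.7, chr6:141197790-141447872), the closest relative of Pde3b and the PDE3 form of heart and smooth muscle, had 0 reads in all 8 libraries. A count of 0 allows up to 0.116 CPM in the shallowest library. The PDE3 transcripts of these cells were thus Pde3b reads alone, as far as this depth shows.

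Across the set, 8 members had enough reads to be tested (edgeR's filter by genotype) and Pde3a and Pde7b did not. For Pde1a the log2 difference was about 0 (SE 0.84), with a sign that turned positive with DESeq2, limma, plain library totals or culture time as a block, and values from -0.64 without ko/ko 72 h to 0.88 without fx/fx 72 h. The other 7 had a log2 difference below 0, as did 46.4% of the 13121 genes tested, and the median of the 8 was -0.63 against 0.03 over all genes tested. For all genes, a difference is named called at a log2 change of 1 or more whose p in edgeR's quasi-likelihood test, after Benjamini-Hochberg adjustment, was 0.05 or less. Pde3b, Pde8a and Pde10a lay past that threshold, 3 of 8, where 2.19% of all genes tested were called in either direction and 1.29% lower in ko/ko cells. For Pde3b this is fixed by its choice and is no test. In 6 of the 8 every ko/ko library lay below every fx/fx library, an arrangement found for 10.5% of all genes tested. The exceptions were Pde4b and Pde1a. Nothing is read from these shares, since the set was chosen with this contrast known. Pde8a no longer lay past the threshold when any 1 of the 6 libraries was left out, nor Pde10a without either 48 h library, nor any of the 3 when the library labelled ko/ko at 24 h was counted as ko/ko.

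**Figure D2:**
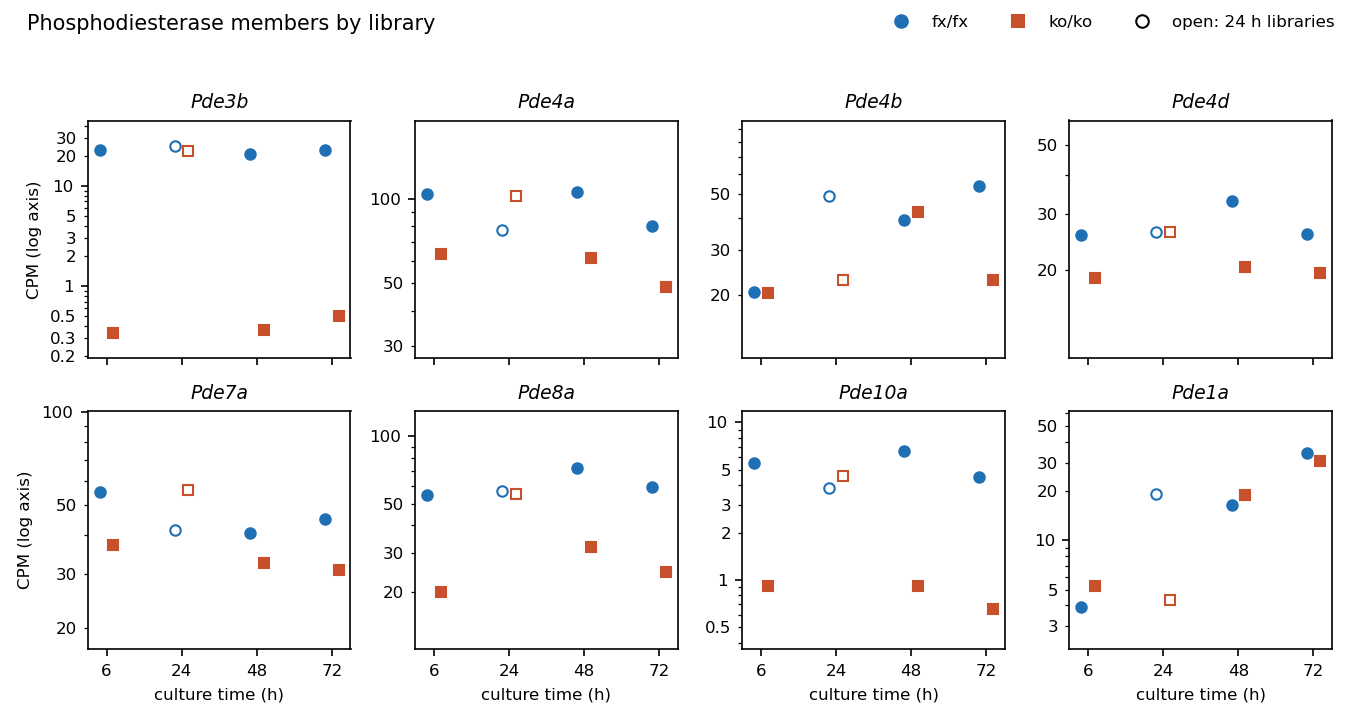
CPM (y axis, log scale, own range in each panel) of the 8 tested PDE members against culture time in hours, with fx/fx as blue circles, ko/ko as red squares and the 24 h libraries open; each point is 1 library. Pde3b lies at 20.6 to 23.0 CPM in the closed circles and at 0.340 to 0.502 CPM in the closed squares, while Pde1a is lowest at 6 h and highest at 72 h among the closed points of both colours.

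Among the cAMP-specific enzymes of high affinity, Pde8a (ENSMUSG00000025584.10, chr7:88358482-88479419) stood at 1699, 2339 and 1858 reads in fx/fx cells at 6, 48 and 72 h. In ko/ko cells it had 587, 972 and 639 reads. At 24 h the counts were 1618 in fx/fx and 1432 in the library labelled ko/ko. The groups did not overlap at 6, 48 and 72 h, and in both genotypes the 48 h library was the highest. The mean was 62.1 ± 9.06 CPM in fx/fx and 25.5 ± 5.94 CPM in ko/ko (SD, n = 3 each), 2.44-fold lower, with a fitted log2 difference of -1.28 (SE 0.23).

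Pde7a (ENSMUSG00000069094.6, chr3:19123108-19211322), of the same biochemical class, differed less. It had 1717, 1314 and 1406 reads in fx/fx and 1091, 992 and 795 reads in ko/ko cells at 6, 48 and 72 h, and 1174 and 1454 in the fx/fx and ko/ko libraries of 24 h. The means were 46.9 ± 7.54 and 33.4 ± 3.32 CPM (SD, n = 3 each), a log2 difference of -0.48 (SE 0.18), with no overlap between the genotypes. Pde7b (ENSMUSG00000019990.8, chr10:20117810-20444884) had at most 5 reads in any library, and no difference was detectable at this depth.

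Pde10a (ENSMUSG00000023868.8, chr17:8718237-9179513), best known from striatal neurons, was scarce in fx/fx cells and scarcer in ko/ko cells. Its counts were 171, 212 and 141 in fx/fx and 27, 28 and 17 in ko/ko cells at 6, 48 and 72 h. At 24 h it had 109 reads in fx/fx and 118 in the library labelled ko/ko. Every ko/ko count at 6, 48 and 72 h was below every fx/fx count by a wide margin. The means were 5.51 ± 1.02 and 0.830 ± 0.150 CPM (SD, n = 3 each), 6.64-fold lower in ko/ko, with a fitted log2 difference of -2.72 (SE 0.32).

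The products of the PDE4 genes are the targets of rolipram. Pde4a (ENSMUSG00000032177.10, chr9:20970158-21017692) had 3234, 3422 and 2507 reads in fx/fx and 1869, 1882 and 1259 reads in ko/ko cells at 6, 48 and 72 h, against 2185 and 2644 in the fx/fx and ko/ko libraries of 24 h. Its log2 ratio was nearly constant over the 3 times, at -0.71, -0.78 and -0.72, and the means were 96.6 ± 14.3 and 57.9 ± 8.11 CPM (SD, n = 3 each). Pde4d (ENSMUSG00000021699.10, chr13:109240142-110743669) had 800, 1076 and 810 reads in fx/fx and 551, 624 and 506 reads in ko/ko cells, and 749 and 685 at 24 h. Its fitted log2 difference was -0.53 (SE 0.19), and its genotypes did not overlap at 6, 48 and 72 h.

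Pde4b (ENSMUSG00000028525.9, chr4:101760148-102279864) overlapped between genotypes. Its counts at 6, 48 and 72 h were 641, 1280 and 1687 in fx/fx and 597, 1298 and 592 in ko/ko cells, with 1391 and 596 in the fx/fx and ko/ko libraries of 24 h. The genotypes were alike at 6 and 48 h, with log2 ratios of -0.02 and 0.10, and apart at 72 h, with -1.24. The log2 difference over the 3 times was -0.42 with an SE of 0.43, no larger than its error. It rested on single libraries, at -0.06 without fx/fx 72 h, -0.22 without ko/ko 6 h, -0.75 without fx/fx 6 h and -0.82 without ko/ko 48 h.

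**Figure D3:**
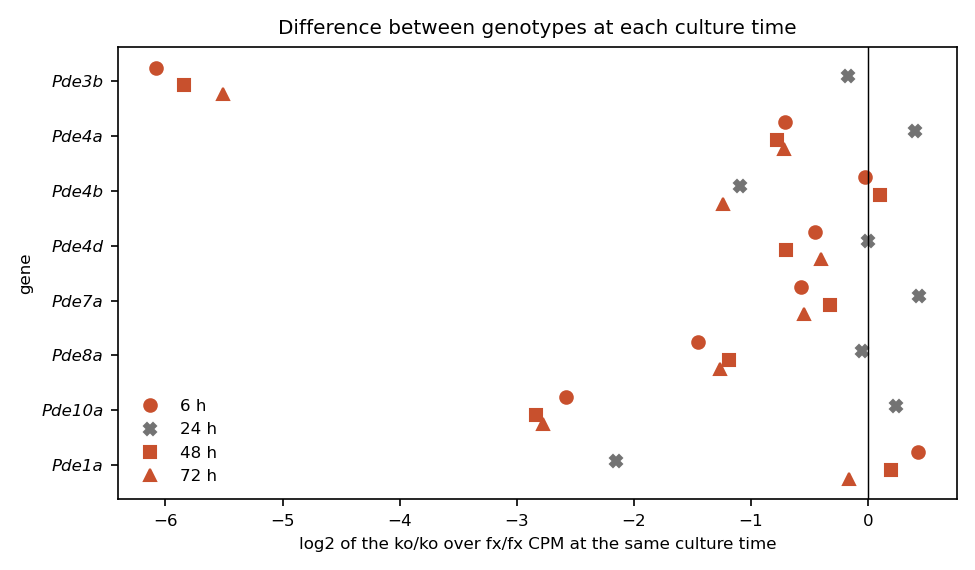
Log2 ratio of ko/ko over fx/fx CPM (x axis) for the 8 tested PDE members (y axis), with 1 symbol for each culture time and grey crosses for 24 h. Pde3b lies at -6.08 to -5.51 and Pde10a at -2.84 to -2.58 outside 24 h, and the 24 h ratio of both lies near 0, at -0.17 and 0.24.

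To show sequence beside these values, the 250 bases before the annotated starts of the members were read from the RefSeq promoter table (build GRCm38.p6), and placed by exact match in mm9. The table held 7 of the 10 members, with 16 starts, and Pde3a, Pde3b and Pde7a are not among them. The window was searched on both strands for the cAMP response element TGACGTCA, the palindromic site of CREB, and for its core TGACG, read as CGTCA where it lies on the other strand. The core is also part of the full element. The core occurred in 4 of the 16 member windows, those of Pde8a, Pde4a, Pde4b and Pde1a at 1 start each, and in 17.8% of the 32851 windows of all genes. The full element occurred in 0 of the 16 and in 1.55% of all windows. These are matches of letters, not sites shown to be bound. The windows of Pde8a (chr7:88357901-88358150), of the second of 3 starts of Pde4a (chr9:20988295-20988544) and of the second start of Pde10a (chr17:9042600-9042849) are printed 5′ to 3′ on the plus strand, with the core in capitals. They are shown because Pde8a and Pde10a had the largest differences after Pde3b, and Pde4a the most abundant PDE4 gene. The core begins 84 bases before the start in Pde8a and 50 bases before it in Pde4a, and the Pde10a window holds none.
Pde8a: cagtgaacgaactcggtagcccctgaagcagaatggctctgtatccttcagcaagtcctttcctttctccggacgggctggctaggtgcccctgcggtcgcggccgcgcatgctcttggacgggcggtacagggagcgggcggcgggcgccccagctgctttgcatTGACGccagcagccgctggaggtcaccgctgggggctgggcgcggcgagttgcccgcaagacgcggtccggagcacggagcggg
Pde4a: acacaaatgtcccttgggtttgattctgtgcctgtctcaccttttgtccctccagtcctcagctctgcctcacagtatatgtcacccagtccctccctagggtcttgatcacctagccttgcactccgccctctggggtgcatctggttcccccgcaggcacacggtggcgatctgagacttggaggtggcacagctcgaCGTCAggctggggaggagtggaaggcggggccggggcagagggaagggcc
Pde10a: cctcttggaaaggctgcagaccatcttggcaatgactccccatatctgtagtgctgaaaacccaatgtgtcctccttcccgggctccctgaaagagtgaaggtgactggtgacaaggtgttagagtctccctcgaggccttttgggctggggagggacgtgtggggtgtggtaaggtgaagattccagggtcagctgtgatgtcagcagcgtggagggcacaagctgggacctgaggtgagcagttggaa

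The set was not chosen by change with culture time. Choosing Pde3b for a small p over 3 times does favour little spread with time, so its slope is a description with no test. Pde1a (ENSMUSG00000059173.10, chr2:79674610-79969632), a calmodulin-activated enzyme, was the member with the steepest slope with time. In fx/fx cells it had 121, 535 and 1077 reads at 6, 48 and 72 h, and 543 at 24 h. In ko/ko cells it had 154, 580 and 797 reads at 6, 48 and 72 h, and 112 in the library labelled ko/ko at 24 h. In both genotypes the 6 h library was the lowest of the 3 and the 72 h library the highest, and the genotype means were equal at 18.3 CPM. The fitted slope was 0.77 per doubling of time on the log2 scale (SE 0.087), with an unadjusted p of 9.29e-05 and an adjusted p of 0.125 by edgeR's quasi-likelihood test, so it was not called. DESeq2 on the same 6 libraries called it, with an adjusted p of 1.28e-13, as did edgeR with hours in place of doublings (adjusted p = 0.0399) and without the ko/ko 48 h library (adjusted p = 0.0329). Over all alternatives its adjusted p ran from 1.28e-13 to 0.787.

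Of the 7 tested members other than Pde3b, 0 passed the edgeR test for culture time (as 0% of all 13121 genes tested did), while 2 had an unadjusted p under 0.05, where 21.1% of all genes did, and DESeq2 called 1, against 7.98% of the genes it adjusted. The other with a low unadjusted p was Pde4b, whose slope was 0.29 per doubling (SE 0.10), with an unadjusted p of 0.0276 and an adjusted p of 0.207 by edgeR. Pde3b had a slope of 0.04, and Pde10a of -0.03 (adjusted p = 0.840 by edgeR). Pde8a had a slope of 0.12 (adjusted p = 0.292 by edgeR). The difference in slope between genotypes passed for none of these 7 (unadjusted p under 0.05 for 0, DESeq2 0), nor for any gene, since 0% of all genes were called and 0.48% had an unadjusted p under 0.05. The unadjusted p of the 7 for that difference ran from 0.369 (Pde4b) to 0.914 (Pde4a).

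To compare levels between genes, CPM was divided by the summed exon length in kilobases (RPKM). In fx/fx cells Pde8a stood highest at 15.3 ± 2.24 RPKM, followed by Pde4a at 12.6 ± 1.87, whose range over libraries overlapped it. Pde7a came next at 6.05 ± 0.973 RPKM, apart from its neighbours on both sides. Pde4b at 3.60 ± 1.58, Pde3b at 3.21 ± 0.190, Pde1a at 3.03 ± 2.54 and Pde4d at 2.35 ± 0.356 RPKM overlapped in that order, each with the next. Pde10a followed at 0.438 ± 0.0808 RPKM (SD, n = 3 throughout). Over all 21 genes for catalytic PDE subunits, Pde3b ranked at place 5 by its mean in fx/fx cells and at place 13 in ko/ko cells.

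In ko/ko cells the order began with Pde4a at 7.57 ± 1.06 RPKM and Pde8a at 6.30 ± 1.47, which overlapped. Pde7a at 4.31 ± 0.429, Pde1a at 3.04 ± 2.12 and Pde4b at 2.70 ± 1.15 RPKM overlapped each with the next, and Pde4d was at 1.63 ± 0.0687. Pde10a at 0.0659 ± 0.0119 and Pde3b at 0.0581 ± 0.0128 RPKM came last of the tested members and overlapped (SD, n = 3 throughout).

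Summed over the 21 genes for catalytic PDE subunits, the level was 50.9 ± 2.66 RPKM in fx/fx cells (49.3 to 54.0) and 28.4 ± 3.16 RPKM in ko/ko cells (26.1 to 32.0; SD, n = 3 each), and 46.3 and 49.6 in the fx/fx and ko/ko libraries of 24 h. Pde3b made up 6.75%, 5.54% and 6.70% of that sum in fx/fx cells at 6, 48 and 72 h. In ko/ko cells its share was 0.19%, 0.16% and 0.27%. Pde8a held 27.4% to 33.0% of the sum in fx/fx and 18.9% to 24.6% in ko/ko cells. The Pde1a share was 1.31%, 5.07% and 11.5% at 6, 48 and 72 h in fx/fx cells, and 3.33%, 9.84% and 18.9% in ko/ko cells.

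**Figure D4:**
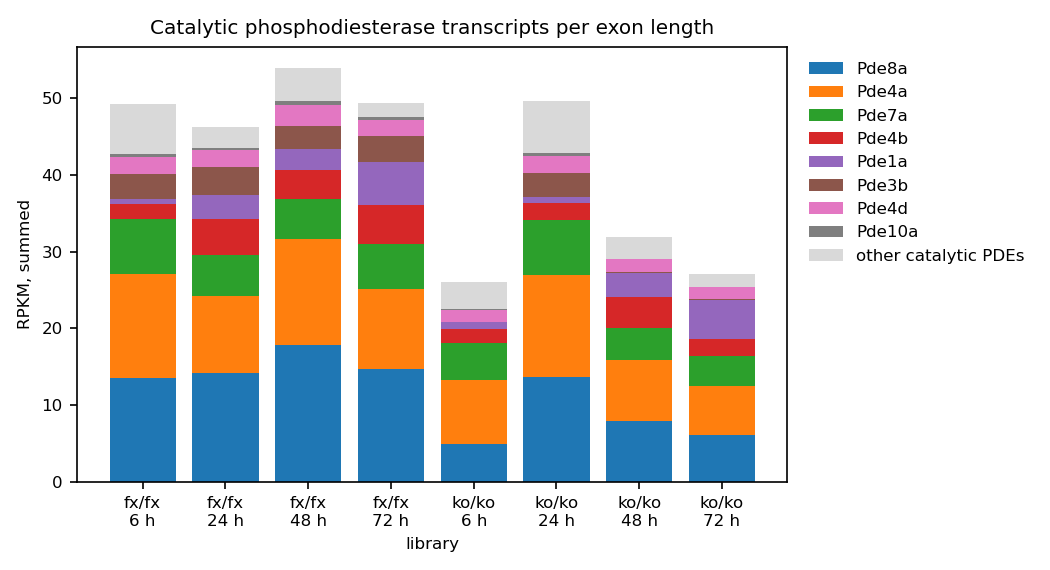
Stacked RPKM (y axis, from 0) of the catalytic PDE genes in each of the 8 libraries, coloured by gene, with the catalytic PDE genes outside the set in light grey. The bars of the 3 ko/ko libraries of 6, 48 and 72 h reach 26.1 to 32.0 and the other 5 reach 46.3 or more.

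Of the 14 remaining PDE genes, 11 had at least 3 reads in some library and 6 were tested. None was called between genotypes by edgeR (1 with an unadjusted p under 0.05, as 14% of all genes tested had, and 1 called by DESeq2, as 5.02% of all genes were), and their median log2 difference was -0.03 against 0.03 over all genes tested. Pde1b, a relative of Pde1a, was the gene with the low p. Its counts at 6, 48 and 72 h were 398, 219 and 51 in fx/fx and 56, 38 and 17 in ko/ko cells, and 48 and 335 in the fx/fx and ko/ko libraries of 24 h. Its counts were lower at each later of these 3 times in both genotypes and the genotypes overlapped, with a log2 difference of -2.45 (SE 0.74, adjusted p = 0.191 by edgeR). With culture time as a block the difference was -2.28 (SE 0.30, adjusted p = 0.00231 by edgeR), a call, in a fit that called 8.45% of all genes.

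Pde2a, a cGMP-stimulated enzyme, had 316, 193 and 47 reads in fx/fx and 217, 135 and 39 reads in ko/ko cells at 6, 48 and 72 h, with a log2 difference of -0.39 (SE 0.74, adjusted p = 0.873 by edgeR). It and Pde1b had negative slopes with time, -0.48 and -0.45 per doubling, with unadjusted p of 0.025 and 0.0282 and adjusted p of 0.203 and 0.208 in edgeR's quasi-likelihood test. None of the remaining tested genes was called. The cGMP-specific Pde5a was at -0.05, the prenyl-binding subunit Pde6d at 0.16, Pde8b at 0.42 and Pde9a at -0.01 on the log2 scale, with adjusted p from 0.719 to 0.995 by edgeR. Pde4c, Pde6a, Pde6b, Pde6g and Pde6h had at most 9 reads in any library.

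The machinery around the PDEs was examined in 9 more lists of cAMP and cGMP genes. Together with the PDE genes outside the set they hold 97 genes, of which 68 were tested and 3 were called between genotypes by edgeR, against the 2.19% of all genes tested. All 3 were lower in ko/ko cells. With culture time as a block, 11 of the 68 were called, against 8.45% of all genes tested, and DESeq2 called 8, against 5.02% of all genes. In the main comparison 50 of the 68 had a log2 difference below 0, against 46.4% of all genes.

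Prkar1b, a regulatory subunit of PKA, had 211, 269 and 212 reads in fx/fx and 39, 32 and 32 in ko/ko cells at 6, 48 and 72 h. At 24 h it had 204 reads in fx/fx and 160 in the library labelled ko/ko. The mean was 7.29 ± 0.877 CPM in fx/fx and 1.20 ± 0.143 CPM in ko/ko (SD, n = 3 each), with a log2 difference of -2.59 (SE 0.28, adjusted p = 0.0111 by edgeR). The call was lost without the fx/fx or the ko/ko library of 48 h (adjusted p = 0.0746 and 0.0752). It was 1 of 8 tested genes of the PKA list, whose most abundant gene, Prkar1a, stood at 535 ± 38.5 and 505 ± 55.0 CPM (adjusted p = 0.907 by edgeR).

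Rapgef4, the cAMP-activated exchange factor Epac2, had 20, 21 and 18 reads in fx/fx and 4, 2 and 2 reads in ko/ko cells, and 20 and 24 at 24 h (adjusted p = 0.0335 by edgeR). So few reads allow no firm fold, and the call was lost when any 1 of the 6 libraries was left out (adjusted p from 0.0700 to 0.189). Rapgef3, Epac1, was the most abundant of the 3 tested genes of its list, with a log2 difference of 0.11 (adjusted p = 0.953 by edgeR). Pik3r5, the p101 subunit of PI3K-gamma, from a list of PI3K-gamma genes, had 1731, 2397 and 1050 reads in fx/fx and 519, 597 and 467 reads in ko/ko cells. At 24 h it had 1312 and 1395 reads. Its log2 difference was -1.55 (SE 0.29, adjusted p = 0.0431 by edgeR), and of the 6 fits that left out 1 library only that without fx/fx 72 h kept the call. It was also lost on all 6 libraries with limma (adjusted p = 0.0509) and under a stricter filter of 10 or more reads in all of them (adjusted p = 0.0664 by edgeR). Pik3cg and Pik3r6, the other members of that list, had too few reads to be tested.

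The 10 genes known to be induced by cAMP were all tested and all had a log2 difference below 0, with a median of -0.80 against 0.03 over all genes tested. By edgeR 0 of the 10 were called (3 with an unadjusted p under 0.05, against 14% of all genes tested, and 2 called by DESeq2, against 5.02%). Junb, the most abundant, was at 310 ± 62.9 CPM in fx/fx and 140 ± 61.3 CPM in ko/ko cells (SD, n = 3 each), a log2 difference of -1.14 (SE 0.35, adjusted p = 0.199 by edgeR). With culture time as a block, where 8.45% of all genes were called, 3 were called lower, namely Junb (adjusted p = 0.00136), Fos (adjusted p = 0.00265) and Areg (adjusted p = 0.0317). Junb and Fos are also early genes of serum and growth factor response.

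G proteins and receptors coupled to them gave 0 calls of 12 tested genes by edgeR (6 with an unadjusted p under 0.05, against 14% of all genes tested, and 2 called by DESeq2, against 5.02%). With culture time as a block 4 were called, against 8.45% of all genes. The parathyroid hormone receptor Pth1r (log2 difference -1.76, adjusted p = 0.00342) and the prostaglandin E2 receptors Ptger2 (adjusted p = 0.00610) and Ptger4 (-1.02, adjusted p = 0.0161) were lower in ko/ko cells. The PACAP receptor Adcyap1r1 was higher (2.07, adjusted p = 0.0277), on at most 50 reads per library. Pth1r had 110, 202 and 120 reads in fx/fx and 43, 49 and 23 in ko/ko cells. Gnas, which encodes the stimulatory G protein, was the most abundant gene of the list and had a log2 difference of -0.08 (adjusted p = 0.898 by edgeR).

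The other lists gave no call in edgeR's main comparison or with the block. Adenylyl cyclases had 6 of 10 genes tested and a median log2 difference of -0.36 (1 with an unadjusted p under 0.05, DESeq2 0), and Adcy6, the most abundant, was at -0.27. A-kinase anchoring proteins had 11 of 13 tested and a median of -0.20 (1 with an unadjusted p under 0.05, DESeq2 0), with Akap12 at 0.48 and Akap2 at -0.33 as the most abundant. CREB factors and coactivators had 6 of 6 tested and a median of -0.11 (1 with an unadjusted p under 0.05, DESeq2 0), and Atf1, the most abundant, was at -0.60. cGMP synthesis and cGMP-dependent kinases had 5 of 11 tested and a median of 0.13 (0 with an unadjusted p under 0.05, DESeq2 0), with Prkg2 at -0.59.

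The 5 nearest listed genes on each side of Pde3b on chromosome 7 were read next. Of the 5 before it, 4933406I18Rik lies on the opposite strand, head to head with Pde3b at a distance of 120 bases between their starts, and had at most 4 reads in any library. Psma1, Copb1 and Rras2 were well expressed, with log2 differences of -0.12, -0.29 and -0.57 and adjusted p of 0.866, 0.538 and 0.425 by edgeR. Without the ko/ko 72 h library Psma1 was at -0.31 and Rras2 at -0.94 (adjusted p = 0.0642 for Rras2 by edgeR). Psma1 was at -0.01 without fx/fx 72 h, -0.21 without fx/fx 48 h and 0.02 without ko/ko 48 h. Spon1 was at -1.36 (adjusted p = 0.221 by edgeR), and at -1.39 (adjusted p = 0.00953) with culture time as a block. In that block fit by edgeR, Rras2 was at -0.62 (adjusted p = 0.0171), short of the log2 change needed for a call. Copb1 was at -0.29 there (adjusted p = 0.0805) and Psma1 at -0.13 (adjusted p = 0.373).

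Cyp2r1, a vitamin D 25-hydroxylase gene on the opposite strand (chr7:121693680-121706486), lies with its 3′ end 10915 bases and its start 23721 bases beyond the end of Pde3b. It was the only neighbour called in that comparison without the block. It had 23, 45 and 23 reads in fx/fx and 1, 0 and 1 reads in ko/ko cells at 6, 48 and 72 h, and 34 and 18 in the fx/fx and ko/ko libraries of 24 h (adjusted p = 0.0201 by edgeR). The call was lost without the fx/fx library of 6 h (adjusted p = 0.0531), that of 48 h (0.107), or the ko/ko library of 6 h (0.0834) or 48 h (0.0953). Farther along, Insc was at -0.09 (adjusted p = 0.975 by edgeR, and from -1.12 to 0.54 when 1 library was left out), and Calca, Calcb and Sox6 had at most 2 reads in any library. Copb1 and Psma1 had 6286 to 6952 and 4543 to 5660 reads in the 3 ko/ko libraries where Pde3b had 10 to 13.

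**Figure D5:**
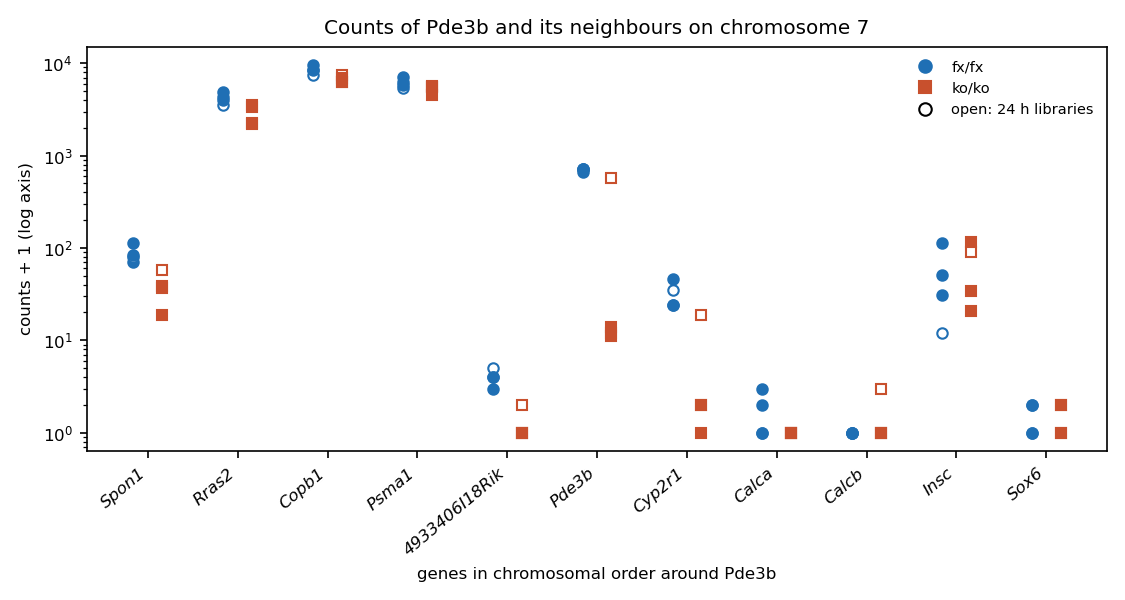
Counts plus 1 (y axis, log scale) of Pde3b and the 5 nearest listed genes on each side in chromosomal order (x axis, not to scale), fx/fx as blue circles, ko/ko as red squares, 24 h libraries open; each point is 1 library. The closed red squares lie below all closed blue circles at Pde3b (10 to 13 against 669 to 715 reads), Cyp2r1 (0 to 1 against 23 to 45), Spon1 (18 to 38 against 69 to 112), Copb1 (6286 to 6952 against 8455 to 9483) and 4933406I18Rik (0 against 2 to 3); by counts alone this also holds at Rras2 and Psma1, whose CPM overlap.

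The genes whose pattern over the 8 libraries was most like that of Pde3b were found by the root mean square difference of centred log2 CPM, over 13052 genes. This measure favours genes low in the same 3 libraries, so the pattern itself is no finding. Rorb, a nuclear receptor, was the nearest at 0.37, with 22.0, 15.7, 16.5 and 14.0 CPM in fx/fx at 6, 24, 48 and 72 h and 0.442, 0.425 and 0.579 CPM in ko/ko at 6, 48 and 72 h. In the library labelled ko/ko at 24 h it was at 23.4 CPM. Lhx1, a LIM homeobox gene, followed at 0.46, then the protocadherin Pcdh7 at 0.61, Shisa7 at 0.62 and Fam19a5 at 0.62. Pcdh7 ranged from 26.6 to 42.3 CPM in fx/fx and from 0.919 to 1.67 CPM in ko/ko cells at 6, 48 and 72 h. The other members ranked behind. Pde10a was at rank 96, Pde8a at 388, Pde4a at 1063 and Pde1a at 12276.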

How the data were processed

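RNA sequencing read counts per gene were analysed for 8 libraries of immortalized mouse dental papilla cells, 1 for each genotype and culture time. The authors aligned reads to mm9 with TopHat2 2.0.8b after CASAVA 1.8.2 and counted them on genes with HTSeq, per the labels and the submitters' processing notes, and deposited raw counts that were not normalized. The last 5 lines of each file, HTSeq's own counters, were left out; the counter of reads with no unique alignment came to 41.3% to 49.6% of all reads in the files. The separate lncRNA counts were not used. The series' design text gives 8 h where every label gives 6 h, and the labels were followed.

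Counts were fitted across all genes with edgeR 4.0.16 (R 4.3.3, TMM, filterByExpr with a minimum count of 10, quasi-likelihood test, Benjamini-Hochberg adjustment). The 3 fits were genotype, slope per doubling of culture time with genotype as a term, and their interaction, on the 6 libraries of 6, 48 and 72 h. Differences were called at a log2 change of at least 1 (genotype) and an adjusted p of at most 0.05. The SE given with an edgeR fit is the absolute log2 value over the square root of its F statistic. It is approximate and need not match the p-value. The same code was tested on simulated counts. DESeq2 1.42.0 and limma 3.58.1 were alternatives. CPM used plain totals; exon lengths came from GENCODE M1 (mm9), which matched 95.7% of symbols.

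The members and the lists were chosen with earlier results of these data known. Named genes are all members, the other PDE genes with at least 3 reads in a library, the called and the most abundant genes of the other lists, the 5 genes most like Pde3b and its 5 neighbours on each side. Cyp2r1 is named with its fit as a neighbour. Genes named only for a call with the block were chosen after their values were seen. The fx/fx and ko/ko libraries harvested at a given time departed from their genotype means in a like way (r = 0.715 at 6 h, 0.538 at 48 h, 0.838 at 72 h, across genes), so culture time was taken to pair the genotypes. Since nothing says that the libraries come from separate cultures, p-values measure the spread between these libraries. Intervals and the floor of 3 reads cover counting error only. Protein sequences were not used here.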

Additional observations from a re-analysis of the deposited data

Results flagged for a closer look

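The lowest or the highest of the 4 libraries of a genotype stood apart from the others by Dixon's test for 5 genes, among 28 groups of 4 libraries checked; chance marks about 5% of such groups. Pde3b was at 22.3 CPM, Pde10a at 4.55 CPM and Pde1b at 12.9 CPM in the library labelled ko/ko at 24 h, each far above the 3 other ko/ko libraries. The gap was 0.993, 0.933 and 0.898 of the range. Pde3b was chosen by values that include those of the 3 other ko/ko libraries. Its gap is therefore a description, not weighed against that 5%. The other 2 were 48 h libraries. Pde4b was at 42.4 CPM in ko/ko at 48 h, with a gap of 0.880 of the range, and Pde4d at 33.2 CPM in fx/fx at 48 h, with a gap of 0.904.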

How the results depend on the processing

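The number of genes called between genotypes was 287. It was 659 with DESeq2, 144 when at least 10 counts were required in every library, 0 with all 8 libraries, and from 9 to 378 when 1 library was left out. Of the members, 3 were called, 2 with at least 10 counts in every library (not Pde8a), 0 with all 8 libraries, and 1 to 2 when 1 library was left out. Of the 68 other genes tested, 3 were called, 5 with the fx/fx 24 h library added, 8 with DESeq2, 1 with at least 10 counts in every library, 0 with all 8 libraries, and 0 to 2 when 1 library was left out. Fits paired by a replicate block of culture time called 1109 genes, 3 members and 11 of the other genes on 6 libraries, and 37 genes, 0 members and 0 of the others on all 8, where the 24 h pair correlated at -0.291; the block changed no call of a member on 6 libraries.

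For culture time, edgeR called 0 genes. DESeq2 called 986 genes, 1 member and 6 of the other genes, and on all 8 libraries, an alternative chosen after seeing the data, 1391 genes, 2 members (Pde1a and Pde4b) and 6 of the others. Time in hours gave 4 genes with 1 member, all 8 libraries in edgeR 1 gene, and leaving out 1 library 0 to 196 genes and 0 to 1 members. For the interaction, leaving out 1 library gave 0 to 1 genes. Where calls moved, the cause was not tested. No fold change of a called member reversed sign. The median log2 difference of all genes was 0.03 both with TMM and with plain library totals. It was highest without the filter, at 0.06. The low counts of Rapgef4, Cyp2r1 and Pde7b limit what depth can show.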
